A study of Mus musculus with 10 samples.

Results

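The transcripts of 8 genes whose proteins meet the histone chaperone DAXX at PML nuclear bodies or through SUMO were followed across mouse embryonic stem cell (mESC) lines: Pml, Sp100, Morc3, Sumo2, Sumo3, Pias1, Rnf4 and Usp7. They were taken by name from the rows of the deposited table, and all 8 of the 8 listed names were found among its 20325 genes. All 8 passed the filter on low counts that left 13201 genes for testing, although Sp100 passed it only through the libraries in which it was highest.

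The study made polyA RNA-Seq libraries from 5 mESC lines with 2 biological replicates each, to ask which transcripts depend on DAXX and which on histone H3.3. Daxx-/- mESCs (strain 129/SvEv) lack DAXX, and the DAXX-rescued line is the same Daxx-/- line with a transgene of WT DAXX. H3.3 KO mESCs (strain 129 x C57BL/6J) lack the histone variant H3.3, and this line was rescued with WT H3.3 or with a mutant H3.3 that the labels call L126A-L130A and the study calls L126A-I130A. The study describes the mutant as a histone that binds DAXX but is not incorporated into chromatin. Transgenes were FLAG-tagged DAXX or FLAG-HA-tagged H3.3, were delivered by lentivirus from an EF1 promoter and were kept under puromycin selection. All lines grew in 2i + LIF medium without feeder cells on gelatin. No unmodified WT mESC line is among these libraries.

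PML bodies are spherical assemblies in the nucleus that form when the PML protein is modified by the small protein SUMO and binds other SUMO-modified proteins through SUMO-interacting motifs. DAXX carries such motifs and is a classical resident of these bodies, and with ATRX it deposits H3.3 on chromatin. SUMO is joined to its targets by an E1, E2 and E3 enzyme cascade, is removed by SENP proteases, and marks some proteins for destruction through ubiquitin ligases that recognise SUMO chains.

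The promoters of Sp100 and Morc3 are printed here because these members passed the test for any difference among the lines, in the case of Sp100 partly through the way the filter admitted it. The sequences are those of RefSeq for GRCm38.p6, run 5′ to 3′ on the strand of the gene, cover 250 bases before and 50 bases after the transcription start, and have each CG dinucleotide in capitals. The Sp100 promoter is chr1:85649738-85650037 on the plus strand, and the Morc3 promoter is chr16:93831871-93832170 on the plus strand.
Sp100: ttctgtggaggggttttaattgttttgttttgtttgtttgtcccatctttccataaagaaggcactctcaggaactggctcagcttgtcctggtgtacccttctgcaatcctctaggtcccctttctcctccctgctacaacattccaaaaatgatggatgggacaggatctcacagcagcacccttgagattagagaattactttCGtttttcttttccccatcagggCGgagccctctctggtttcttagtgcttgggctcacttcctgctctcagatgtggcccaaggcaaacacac
Morc3: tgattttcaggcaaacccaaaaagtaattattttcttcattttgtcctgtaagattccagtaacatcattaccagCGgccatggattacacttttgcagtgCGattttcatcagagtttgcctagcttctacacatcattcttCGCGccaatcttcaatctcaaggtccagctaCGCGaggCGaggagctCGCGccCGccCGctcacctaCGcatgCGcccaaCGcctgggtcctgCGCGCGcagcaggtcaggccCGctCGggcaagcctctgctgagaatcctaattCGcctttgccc

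The Sp100 window holds 2 CG dinucleotides, an observed to expected ratio of 0.12, and 14.6% of the promoters in the RefSeq table hold fewer. The Morc3 window holds 20, a ratio of 1.00, and 73.2% of promoters hold fewer. The windows of the other 6 members hold between 11 (Pml) and 63 (Usp7), against a median of 7 over 27025 promoters. Pml and Sp100 are known as interferon-induced genes, so both strands were searched for the core of the interferon-stimulated response element, which is TTTC followed by any 2 bases and TTTC again, and for that of the gamma-activated site, TTCNNNGAA, which can share bases with it. Neither had an exact match in the window of any of the 8 members, and 3.49% and 8.47% of all promoters hold them. Inexact matches were not counted, so a variant of either core may be present. The CCAAT box, searched as CCAAT on both strands, was found in the windows of Sumo2, Morc3, Rnf4 and Usp7 and in 37.9% of all promoters.

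Libraries held between 15463625 and 21396585 expected counts. Levels are given in CPM, a gene's count relative to the total of its library, after median-of-ratios scaling with factors between 0.936 and 1.04. The spread between replicates exceeded sampling noise in each line and was widest in Daxx-/- mESCs, with a chi-square per gene of 68.7 against 10.4 in the WT H3.3 line. Daxx measured 82.5 and 72.8 CPM in Daxx-/- mESCs, 206 and 206 CPM with the DAXX transgene and between 59.3 and 101 CPM in the 3 H3.3 lines, so reads still fell on Daxx in the knockout. H3f3a, one of the genes for H3.3, fell from between 381 and 494 CPM in the Daxx lines to between 2.84 and 10.9 CPM in the H3.3 lines, while H3f3b, the other, was not lower in H3.3 KO (509 and 720 CPM) than in Daxx-/- mESCs (313 and 380 CPM). H3f3b was lower with DAXX (116 and 84.3 CPM, adjusted p = 0.0244, edgeR) and with WT H3.3 (204 and 139 CPM, adjusted p = 0.0311) than in the knockout of each, and measured 386 and 324 CPM with the mutant. Neither H3.3 gene had a higher mean in the rescued H3.3 lines than in H3.3 KO, so these counts give no check of the H3.3 transgenes, and the lines are named as labelled. A count per gene does not show which exons the reads cover and includes a transgene's own coding sequence. Summed CPM of 6 pluripotency genes lay between 3120 and 3840 in the Daxx lines and between 3980 and 4980 in the H3.3 lines, and of 5 fibroblast genes between 4.25 and 40.9, with Col1a2, Dcn and Postn under 1 CPM in every library.

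Most of the members were well expressed and nearly level across the 5 lines. Per kb of the longest coding transcript in the GENCODE annotation of GRCm38, mean levels over the 10 libraries ran from 419 CPM per kb for Sumo2, through 125 for Usp7, 96.7 for Rnf4, 62.9 for Sumo3, 53.2 for Morc3, 35.5 for Pml and 5.84 for Pias1, down to 0.400 CPM per kb for Sp100. The line with the highest mean exceeded the line with the lowest by between 1.06-fold (Usp7) and 1.58-fold (Morc3) in CPM for 7 members, and by 8.87-fold for Sp100. The plot of the members by library shows these levels.

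**Figure D1:**
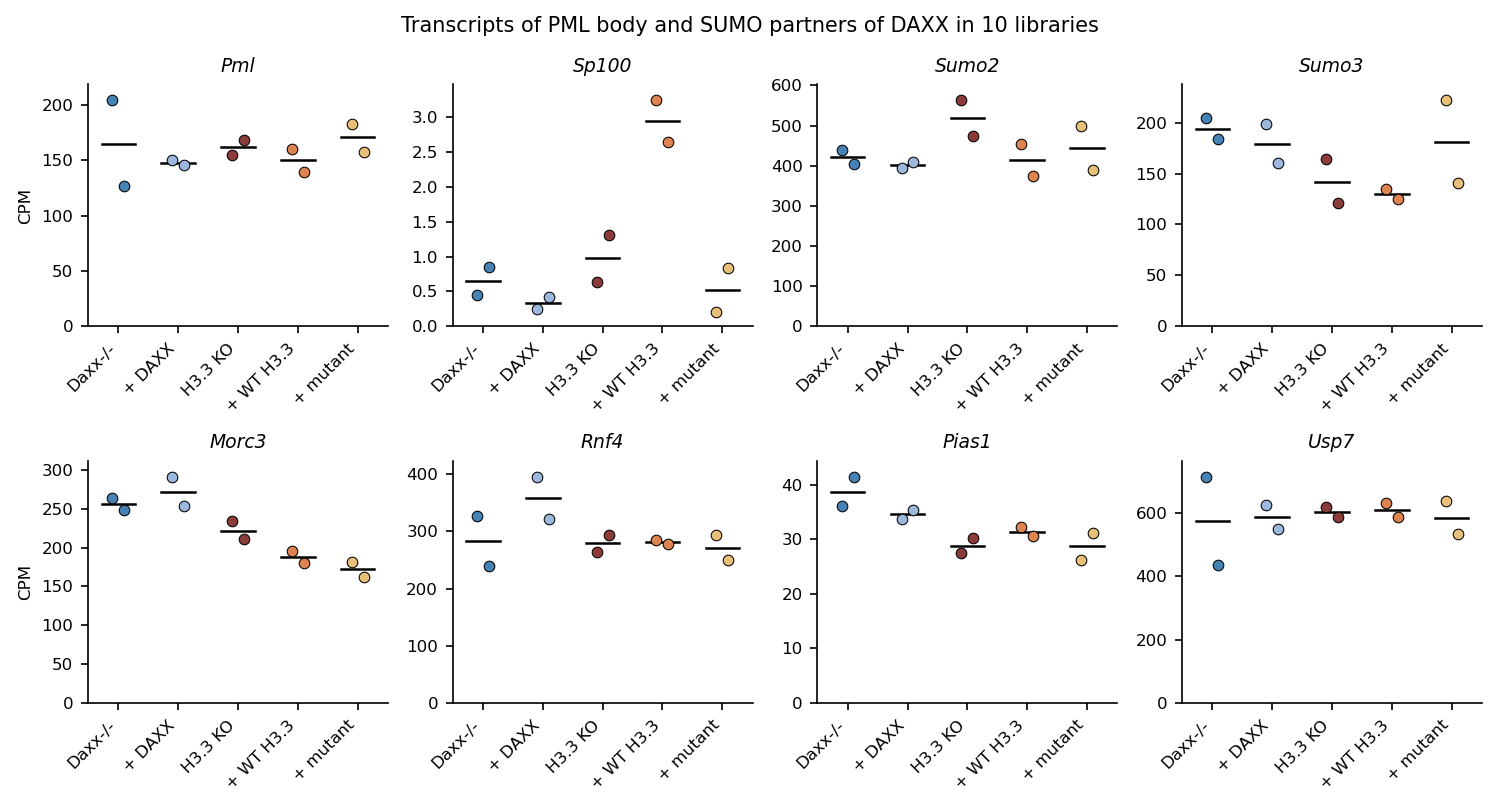
CPM (y axis, from 0) of the 8 members in each of 10 libraries, with the 2 replicates of a line as points and their mean as a bar. Lines run from left to right as Daxx-/-, Daxx-/- with DAXX, H3.3 KO, H3.3 KO with WT H3.3 and H3.3 KO with mutant H3.3. Sp100 lies under 3.3 CPM throughout and is highest with WT H3.3, and Morc3 is lower in the 3 H3.3 lines than in both Daxx lines.

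Pml (chromosome 9, 58218076 to 58249786, minus strand in GRCm38) encodes the scaffold of the bodies. It measured 204 and 126.5 CPM in Daxx-/- mESCs, 150 and 146 CPM with DAXX, 155 and 169 CPM in H3.3 KO, 160 and 139.5 CPM with WT H3.3, and 183 and 158 CPM with the mutant. The Daxx-/- replicates themselves were the highest and the lowest of all 10 libraries, 1.62-fold apart, and every pair of neighbouring lines in the order of means overlapped. The DAXX-rescued line differed from its knockout by -0.16 ± 0.21 on the log2 scale (SE, 95% interval -0.63 to 0.31), with an adjusted p of 0.675 in edgeR's quasi-likelihood test. Without Daxx-/- replicate 1 this value was 0.23, and without replicate 2 it was -0.47, so its sign rested on one library. The test for any difference among the 5 lines gave an adjusted p of 0.849 for Pml.

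Sp100 (chromosome 1, 85649988 to 85709998, plus strand) encodes another constitutive protein of the bodies, which is itself modified by SUMO. It was scarcely detected, at 0.456 and 0.850 CPM in Daxx-/- mESCs, 0.248 and 0.415 CPM with DAXX, 0.638 and 1.31 CPM in H3.3 KO, 3.24 and 2.64 CPM with WT H3.3, and 0.207 and 0.832 CPM with the mutant. These are between 3.07 and 51.0 expected counts per library. Both WT H3.3 libraries were above all 8 others, and the other 4 lines overlapped with their neighbours in the order of means.

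The test for any difference among the lines gave Sp100 an adjusted p of 0.0301 (edgeR). Since the gene entered the test through 3 libraries at or above 1 CPM, 2 of them of the WT H3.3 line, a difference among the genes admitted in this way is partly built in. No single comparison was called: WT H3.3 against H3.3 KO differed by 1.60 ± 0.66 on the log2 scale (3.03-fold, 95% interval 1.09 to 8.47-fold, unadjusted p = 0.0372, adjusted p = 0.338), and the mutant against WT H3.3 by -2.46 ± 0.69 (5.51-fold, unadjusted p = 0.00610, adjusted p = 0.172). The former ranged from 1.16 (without H3.3 KO replicate 1) to 2.22 (without H3.3 KO replicate 2), and the latter from -1.82 (without mutant replicate 1) to -3.81 (without mutant replicate 2), so a single library moved either by more than 1.5-fold. The difference between the DAXX rescue and the WT H3.3 rescue, tested directly, was -2.59 ± 1.00 (adjusted p = 0.309). The call among the lines was lost without either replicate of the WT H3.3 line and without either replicate of the DAXX-rescued line. Those fits leave a line with no replicate, and a smaller share of all genes passed in them as well. A bulk level this low cannot tell more cells with the transcript from more transcript per cell. The summed CPM of 3 genes that mark 2-cell-like cells (Zscan4c, Zscan4d and Zscan4f, of 5 listed) also differed among lines: 95.2 to 135 with WT H3.3, 102 to 134 in H3.3 KO, 1.62 to 25.6 with the mutant and 5.42 to 53.0 in the Daxx lines. Their part in the Sp100 result was not tested.

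Sp100 lies on chromosome 1 beside its paralogs Sp110 (85576899 to 85598817, minus strand) and Sp140 (85600378 to 85645037, plus strand), whose values were looked up after those of Sp100 were seen. Sp110, a nuclear body protein of the same family, measured 1.39 and 1.97 CPM in Daxx-/- mESCs, 1.36 and 0.852 CPM with DAXX, 2.55 and 4.65 CPM in H3.3 KO, 4.13 and 7.11 CPM with WT H3.3, and 0.540 and 1.28 CPM with the mutant. Its highest mean was thus in the same line as that of Sp100, and its mutant libraries lay below both H3.3 KO libraries. Sp110 passed the test among the 5 lines (adjusted p = 0.0203, edgeR), but not that of the mutant against WT H3.3 (-2.62 ± 0.57, adjusted p = 0.0998). Sp140 also had its highest mean with WT H3.3, at 2.62 and 3.91 CPM, but did not pass the test among the lines (adjusted p = 0.282), and Cab39, which encodes a scaffold of the kinase LKB1 and lies downstream of Sp100, ranged only from 102 to 131 CPM. Over the 10 libraries, Pearson's r of log2(CPM + 1) with Sp100 was 0.87 for Sp110, 0.83 for Sp140 and 0.45 for Cab39. These points share their libraries and depth, and the figures are a description. Sp100 also shares stretches of at least 200 bases at 95% identity or more with 3 pseudogenes annotated in GRCm38. RSEM may have split its reads with them, which was not checked because the annotation used for the counts is not given.

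**Figure D2:**
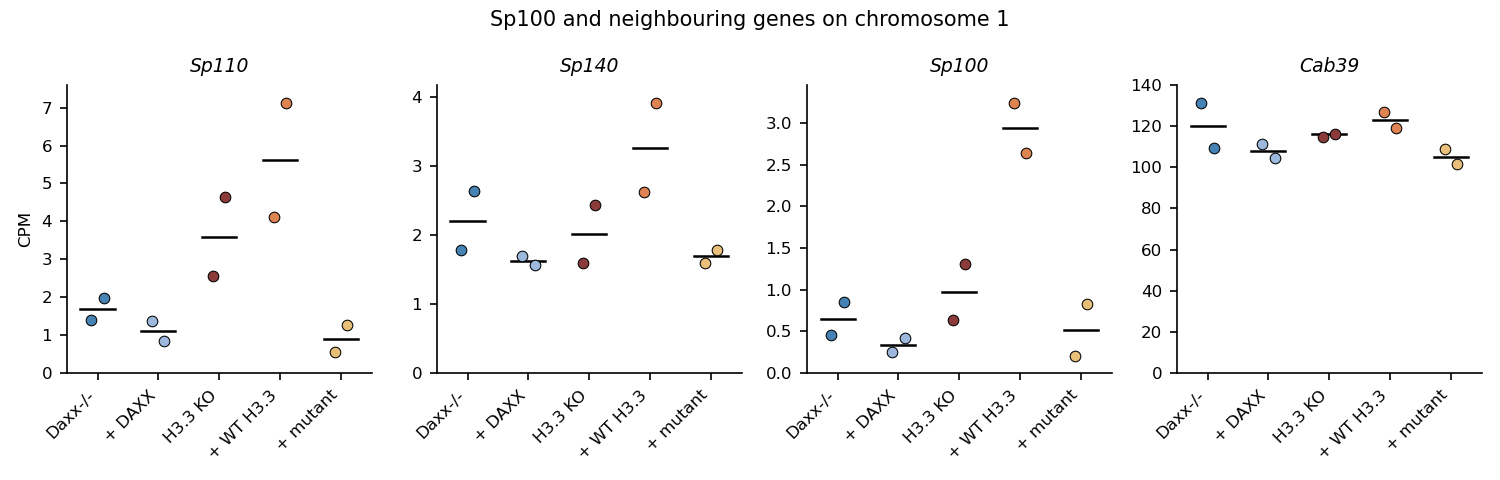
CPM (y axis, from 0) of Sp110, Sp140, Sp100 and Cab39 in the 10 libraries, with replicates as points and line means as bars, lines ordered as before. The 3 Sp genes have their highest mean with WT H3.3, while Cab39 stays between 102 and 131 CPM.

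Morc3 (chromosome 16, 93832121 to 93876073, plus strand) encodes an ATPase that enters PML bodies through SUMO. It measured 264 and 249 CPM in Daxx-/- mESCs, 291 and 253 CPM with DAXX, 234 and 211 CPM in H3.3 KO, 195 and 180 CPM with WT H3.3, and 182 and 163 CPM with the mutant. All 4 libraries of the Daxx lines lay above all 6 libraries of the H3.3 lines, both Daxx lines overlapped, and H3.3 KO lay above both rescued H3.3 lines, which overlapped each other. Replicates of Morc3 were never more than 1.15-fold apart.

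Morc3 passed the test for any difference among the 5 lines (adjusted p = 0.0197, edgeR). Of the 13201 genes tested, 32.9% passed that test, and of the 8 members 2 did, Morc3 and Sp100, so the members' share was not above the background. The call was lost without DAXX-rescued replicate 1, WT H3.3 replicate 1 or replicate 2, or mutant replicate 2. Each such fit leaves a line with no replicate, and a smaller share of all genes passed in it, so the loss cannot be read as particular to Morc3. In single comparisons, the mutant line differed from H3.3 KO by -0.37 ± 0.13 on the log2 scale (1.29-fold lower, unadjusted p = 0.0229, adjusted p = 0.213), and the WT H3.3 line by -0.24 ± 0.13 (adjusted p = 0.490). After these values were seen, the mean of the 3 H3.3 lines was set against the mean of the 2 Daxx lines: the value for Morc3 was -0.45 ± 0.09 (1.37-fold lower in the H3.3 lines, 95% interval -0.65 to -0.26, adjusted p = 0.00354). The contrast restates the separation it was built on, so its p is no further support, and 39.9% of all genes passed in it. Strain, derivation and genotype differ together between these lines and cannot be told apart. The summed CPM of 5 fibroblast genes moved the same way, at 12.3 to 40.9 in the Daxx lines and 4.25 to 11.1 in the H3.3 lines. Among these genes Col1a2, Dcn and Postn were under 1 CPM in every library, so the sum does not speak for them. The summed CPM of the 6 pluripotency genes moved the other way, with the ranges given above. The part of either was not tested.

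Sumo2 (chromosome 11, 115523102 to 115536276, minus strand) and Sumo3 (chromosome 10, 77606097 to 77618331, plus strand) encode the near-identical SUMO proteins that form chains. Sumo2 measured 440 and 405 CPM in Daxx-/- mESCs, 393 and 410 CPM with DAXX, 563 and 475 CPM in H3.3 KO, 454 and 374 CPM with WT H3.3, and 499 and 389 CPM with the mutant. H3.3 KO had the highest mean, and both its libraries lay above both WT H3.3 libraries, a difference of -0.33 ± 0.17 on the log2 scale after rescue (95% interval -0.70 to 0.05, adjusted p = 0.449). Sumo3 measured 205 and 184 CPM in Daxx-/- mESCs, 198 and 160 CPM with DAXX, 164 and 121 CPM in H3.3 KO, 135 and 125 CPM with WT H3.3, and 222 and 141 CPM with the mutant. Its lowest means were in H3.3 KO and with WT H3.3, and the mutant replicates were 1.57-fold apart, so that the mutant exceeded WT H3.3 by 0.48 ± 0.23 (95% interval -0.04 to 1.01, adjusted p = 0.452). This value was 0.12 without mutant replicate 1 and 0.77 without mutant replicate 2, so its size rested on one library.

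Per kb of transcript, Sumo2 and Sumo3 summed to between 404 and 598 CPM per kb, of which Sumo3 made up between 9.22% and 16.8%. The ratio of Sumo2 to Sumo3, in CPM, was 2.15 and 2.20 in Daxx-/- mESCs, 1.98 and 2.55 with DAXX, 3.43 and 3.93 in H3.3 KO, 3.36 and 3.00 with WT H3.3, and 2.25 and 2.76 with the mutant. H3.3 KO and WT H3.3 libraries thus had higher ratios than the other 6, a pattern that was seen after the fact and not tested. In the GRCm38 annotation, Sumo2 shares stretches of at least 200 bases at 95% identity with 11 other genes, 10 of them pseudogenes. Sumo3 shares 346 exon bases with the overlapping gene Gm49325. Reads of both may have been split with these genes, which was not checked.

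**Figure D3:**
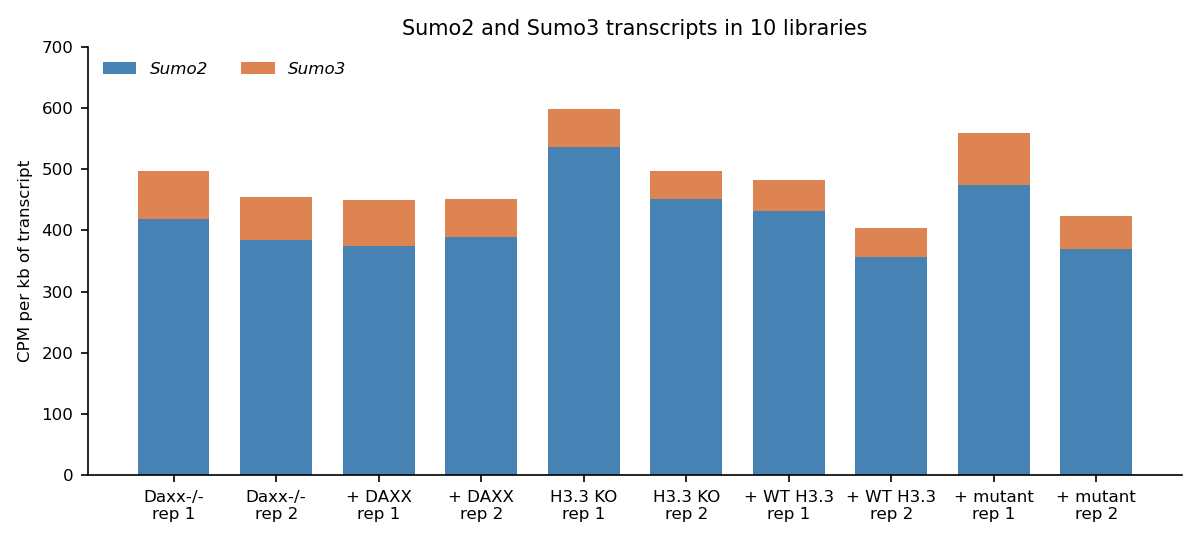
CPM per kb of the longest coding transcript (y axis) of Sumo2 and Sumo3, stacked for each of the 10 libraries (x axis). The sums lie between 404 and 598 CPM per kb, and Sumo2 is the larger part of every bar.

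Pias1 (chromosome 9, 62878368 to 62987924, minus strand) encodes a SUMO E3 ligase whose targets include PML. It measured 36.0 and 41.5 CPM in Daxx-/- mESCs, 33.8 and 35.5 CPM with DAXX, 27.5 and 30.2 CPM in H3.3 KO, 32.2 and 30.6 CPM with WT H3.3, and 26.3 and 31.2 CPM with the mutant. As with Morc3, all 4 libraries of the Daxx lines lay above all 6 of the H3.3 lines. H3.3 KO differed from Daxx-/- mESCs by -0.43 ± 0.16 on the log2 scale (1.34-fold lower, unadjusted p = 0.0234, adjusted p = 0.0785), and the test among the 5 lines gave an adjusted p of 0.160. In the contrast of H3.3 with Daxx lines, which was built after the separation was seen, the value for Pias1 was -0.30 ± 0.10 (adjusted p = 0.0379, edgeR). The call was lost with no filter on low counts (0.0630) and with library size as the only scaling (0.114). It was also lost when any of the 8 libraries other than Daxx-/- replicate 1 and mutant replicate 2 was left out. Leaving a library out gives a line with no replicate, and the value then lay between -0.36 and -0.25. Of all genes, 39.9% passed in that contrast. The summed fibroblast and pluripotency genes separate the same libraries, as given for Morc3, and their part was not tested.

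Rnf4 (chromosome 5, 34336289 to 34355629, plus strand) encodes the ubiquitin ligase that recognises SUMO chains on PML and sends it to the proteasome. It measured 327 and 240 CPM in Daxx-/- mESCs, 395 and 322 CPM with DAXX, 265 and 294 CPM in H3.3 KO, 284 and 277 CPM with WT H3.3, and 293 and 249 CPM with the mutant. The DAXX-rescued line had the highest mean, but its lower library overlapped with Daxx-/- mESCs. The rescue differed by 0.34 ± 0.18 on the log2 scale (1.27-fold, 95% interval -0.06 to 0.75, adjusted p = 0.298), while WT H3.3 and the mutant differed from H3.3 KO by 0.01 ± 0.18 and -0.04 ± 0.18.

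Usp7 (chromosome 16, 8689595 to 8792308, minus strand) encodes a deubiquitinase that binds DAXX and is known for protecting MDM2 and DAXX from degradation. It measured 714 and 434 CPM in Daxx-/- mESCs, 625 and 550 CPM with DAXX, 618 and 587 CPM in H3.3 KO, 630 and 587 CPM with WT H3.3, and 636 and 533 CPM with the mutant. Its 5 line means were within 1.06-fold of one another, while the Daxx-/- replicates were 1.64-fold apart. The DAXX rescue differed from its knockout by 0.03 ± 0.21 (95% interval -0.45 to 0.52), and the test among the 5 lines gave an adjusted p of 0.995. Usp7 and Pml had the highest correlation of any pair of members over the 10 libraries (Pearson's r = 0.80 on log2(CPM + 1)), and both were highest in Daxx-/- replicate 1 and lowest in Daxx-/- replicate 2.

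In each of the comparisons of the design, 0 of the 8 members were called at an adjusted p under 0.05 and a 2-fold change with edgeR or with DESeq2, and 0 were called by edgeR at any fold. For the DAXX rescue, 1.08% of all genes were called at 2-fold and 1.41% at any fold, and 0 members had an unadjusted p under 0.05, as 21.8% of all genes had. For the WT H3.3 rescue, 0.250% of genes were called under either rule, and 1 member, Sp100, had an unadjusted p under 0.05 (13.3% of all genes). For the mutant rescue, 0.788% and 0.962% were called, and the 1 member was Morc3 (16.9% of all genes). For the mutant against WT H3.3, the shares were 0.515% and 0.530%, and the 1 member was Sp100 (12.3% of all genes). H3.3 KO against Daxx-/- mESCs, a comparison in which strain and genotype differ together, had shares of 11.7% and 23.7%, and the 1 member was Pias1 (38.0% of all genes). Against backgrounds this low in the first 4 comparisons, 0 of 8 is not a result about the members.

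The size of the differences can be bounded. For Sp100 the 95% interval reached beyond 2-fold in every comparison. For the other 7 members it lay within 2-fold in every comparison except for Sumo3 in the mutant against WT H3.3. Of all genes, 53.9% had intervals within 2-fold in the DAXX rescue, 60.3% in the WT H3.3 rescue and 58.8% in the mutant rescue. This share was 60.7% in the mutant against WT H3.3 and 44.2% between the knockout lines. Without Sp100, the largest difference was 0.341 on the log2 scale in the DAXX rescue, 0.325 in the WT H3.3 rescue, 0.369 in the mutant rescue, 0.482 in the mutant against WT H3.3 and 0.448 between the knockout lines, each regardless of sign. The members' median absolute log2 difference was 0.14 against 0.33 over all genes in the DAXX rescue, 0.13 against 0.24 in the WT H3.3 rescue, 0.15 against 0.27 in the mutant rescue, 0.13 against 0.22 in the mutant against WT H3.3 and 0.25 against 0.46 between the knockout lines. This is a description, since levels as well as differences set these sizes. A differing response to DAXX and to H3.3 was tested as well, and 0 members passed with edgeR or DESeq2, against 0.0455% of genes for the DAXX rescue minus the WT H3.3 rescue and 0.0227% for the DAXX rescue minus the mutant rescue. The member with the lowest p was Sp100 in the former (unadjusted p = 0.0293, adjusted p = 0.309, edgeR) and Morc3 in the latter (unadjusted p = 0.0396, adjusted p = 0.421). The share of all genes with an unadjusted p this low is not given here for these tests, so neither value is a result about the members.

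**Figure D4:**
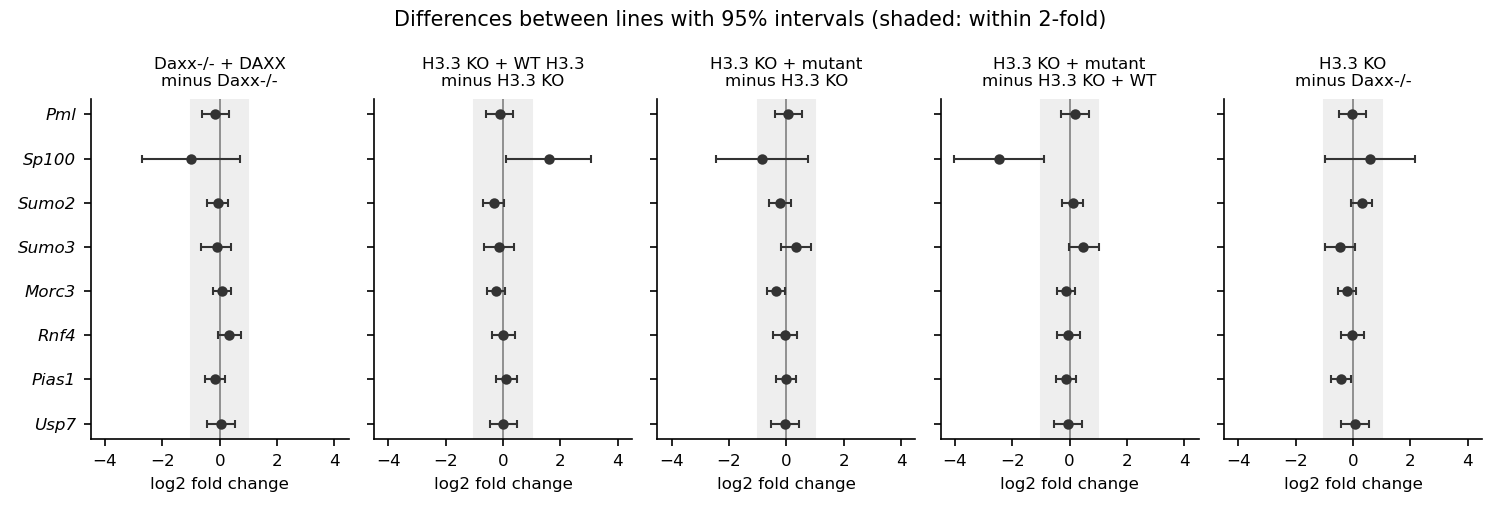
Log2 fold changes (x axis, points) of the 8 members in the 5 comparisons, 1 panel each, with 95% intervals from edgeR as bars and the range within 2-fold shaded. Intervals lie within the shaded range except those of Sp100 and that of Sumo3 for the mutant against WT H3.3.

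Beyond the 8 members, 58 genes of the same pathways were listed, and 52 of them passed the filter on low counts. In the WT H3.3 rescue, the mutant rescue and the mutant against WT H3.3, 0 of 52 had an adjusted p under 0.05 with edgeR, against 0.250%, 0.962% and 0.530% of all genes, and in the DAXX rescue 1 of 52 had, against 1.41%. At an unadjusted p under 0.05 these counts were 5, 5, 10 and 8, against 13.3%, 16.9%, 12.3% and 21.8% of all genes. With DESeq2 they were 2, 1, 3 and 2, against 2.89%, 5.79%, 3.62% and 8.78% of all genes. The gene called in the DAXX rescue was Morc1, a germline MORC family ATPase that silences transposons, at 203 and 201 CPM in Daxx-/- mESCs and 116 and 135 CPM with DAXX (-0.69 ± 0.13, adjusted p = 0.0423). The call was lost without Daxx-/- replicate 2 or either DAXX-rescued replicate. Each such fit leaves a line with no replicate, and far fewer of all genes were called in it, so the loss is not particular to Morc1. Its relative Morc3 differed by 0.09 ± 0.13 in the same comparison.

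Between the knockout lines 12 of the 52 passed, 5 higher and 7 lower in H3.3 KO, against the 23.7% of all genes given above. Of the 11 genes of SUMO conjugation, 1 was higher and 2 were lower, with a median of -0.05 against -0.02 over all genes. Sae1, a subunit of the SUMO E1 enzyme, measured 516 and 403 CPM in Daxx-/- mESCs and 231 and 222 CPM in H3.3 KO (-1.02 ± 0.16, adjusted p = 0.00326). Zfp451, a SUMO E3 ligase, measured 92.8 and 106 CPM against 65.6 and 58.7 CPM (-0.67 ± 0.14, adjusted p = 0.0105). Both fell with no overlap between the lines, but Zfp451 lost its call without H3.3 KO replicate 2. That fit leaves H3.3 KO with no replicate, and a smaller share of all genes passed in it, so the loss is not particular to Zfp451.

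Of the 10 SUMO proteases and SUMO-targeted ubiquitin ligases, 0 were higher and 2 lower between the knockout lines, although the median of the list was 0.43. The larger fall was in Senp1, a SUMO protease, from 93.0 and 77.1 CPM to 52.9 and 46.5 CPM (-0.77 ± 0.15, adjusted p = 0.00762, edgeR). Senp1 lost its call without H3.3 KO replicate 2, as Zfp451 did. Among other PML body proteins, 1 of 9 tested was higher and 1 lower. Blm, the Bloom syndrome helicase, fell from 207 and 190 CPM to 127 and 104 CPM (-0.78 ± 0.14, adjusted p = 0.00659, edgeR). Its call, too, was lost without H3.3 KO replicate 2. Of 15 other DAXX partners and regulators, 2 were higher and 1 lower, and of 3 other MORC genes tested 0 passed with edgeR, at an unadjusted p under 0.05 or with DESeq2.

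Interferon pathway genes were scarce in these cells, and 4 of the 8 listed were tested. Irf9, the DNA-binding subunit of the interferon-activated factor ISGF3, rose from 7.98 and 5.88 CPM to 13.8 and 17.1 CPM between the knockout lines (1.15 ± 0.24, adjusted p = 0.0102, edgeR), and 1 other of the 4 fell. The call of Irf9 was lost without H3.3 KO replicate 2, a fit that leaves that line with no replicate and in which fewer of all genes passed. In the WT H3.3 rescue, where Sp100 had its highest level, 0 of the 4 passed with edgeR, with DESeq2 or at an unadjusted p under 0.05, with a median of 0.26 against 0.02 over all genes. The plot of the pathway lists shows all 52 genes.

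**Figure D5:**
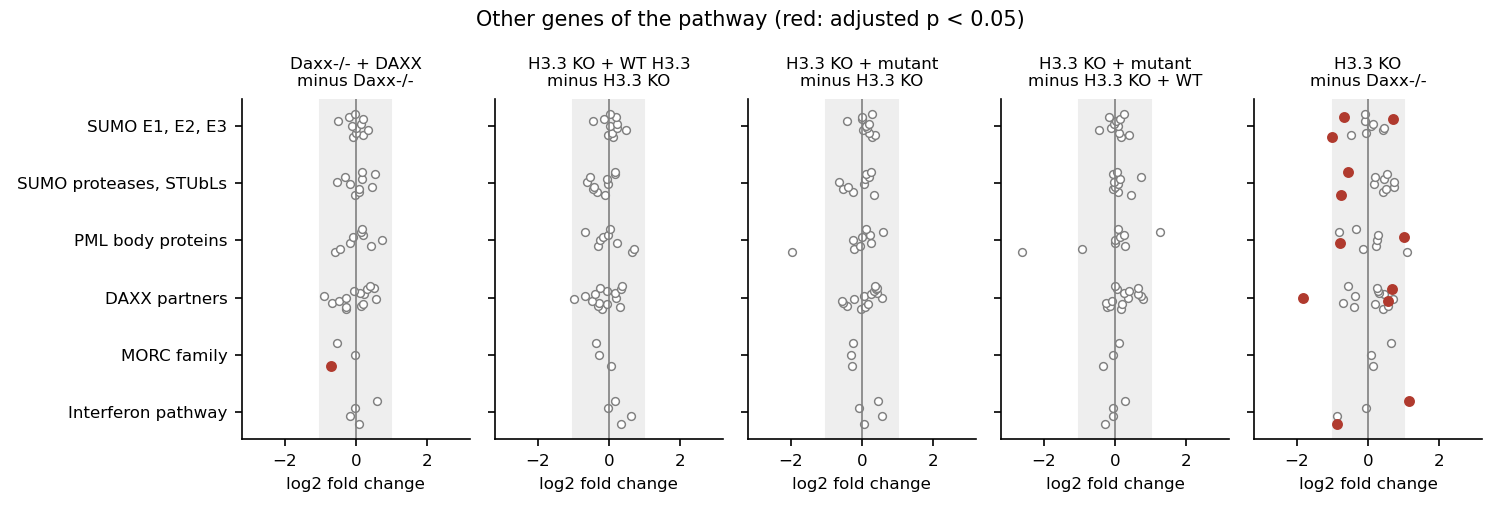
Log2 fold changes (x axis) of the 52 tested genes in 6 pathway lists (rows), 1 panel for each of the 5 comparisons, with the range within 2-fold shaded and genes at an adjusted p under 0.05 in red. The panel of H3.3 KO against Daxx-/- mESCs holds 12 red points, that of the DAXX rescue 1 and the others 0.

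The genes whose levels ran most closely with each member over the 10 libraries, by Pearson's r of log2(CPM + 1), came from outside these pathways. They were Hmgb2 (0.940) and Pcolce2 (0.900) for Pml, Taf13 (0.935) and Rpl5 (0.933) for Sp100, and Polr1a (0.975) and Usp34 (0.972) for Morc3. Sumo2 ran with 4930547N16Rik (0.953) and Ykt6 (0.897), Sumo3 with Crcp (0.917) and Pdzd4 (0.916), and Pias1 with Plbd2 (0.967) and Exoc4 (0.965). Rnf4 ran with Pepd (0.982) and Ecm1 (0.975), and Usp7 with Zfp207 (0.964) and Cinp (0.955). Each is the best of 13201 genes over 10 libraries that share lines and depth, so values this high are a description only. Among the members themselves, r lay between -0.79 (Sp100 with Sumo3) and 0.80 (Pml with Usp7).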

How the data were processed

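PolyA RNA of 10 libraries was sequenced. Per the submitters' processing notes, reads were aligned with Bowtie to mm9 and quantified with RSEM. The versions, annotation and strand setting are not given in the sources used here. The deposited values are the authors' RSEM expected counts per gene, not scaled, although the table is named TPM. They were rounded, and the 13201 of 20325 genes that reached 1 CPM in 2 or more libraries were tested with edgeR 4.0.16 (glmQLFTest, R 4.3.3) in one fit of 5 lines with median-of-ratios factors and Benjamini-Hochberg adjustment. The SE is the log2 fold change divided by the square root of F. P-values rest on the spread between 2 cultures of each line, pooled over the 5 lines of the fit. Comparisons with the noisier Daxx-/- line are thus judged by a spread shared with the other lines. No p-value measures a spread between independently made lines. The scripts were tested on simulated data. Alternatives were TMM factors, library size alone, no filter, DESeq2 1.42.0, a replicate block, each comparison fitted alone, and each library left out.

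The members and lists were chosen with earlier results of these data known. All members, the targeted genes, up to 5 pathway genes per comparison with the lowest adjusted p under 0.05 and, for each member, the 2 most correlated genes were to be named. Sp110, Sp140, Cab39, the contrast of H3.3 with Daxx lines and the SUMO ratios were added after values were seen. Positions come from GENCODE for GRCm38 by symbol, and shared sequence from BLAST 2.17.0. Protein sequences were not used here, and a gene of the pathway lists is not reported here.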

Additional observations from a re-analysis of the deposited data

How the results depend on the processing

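The count of members called at 2-fold stayed at 0 in the 5 comparisons under each alternative run, and so did that of the interaction tests. The count for any difference among the lines (2) was 3 with the replicate block, where Sumo3 joined (adjusted p = 0.0313, edgeR). Of all genes, 51.5% passed that test with the block and 32.9% with the settings used here. The members' count did not rise with a library left out, a fit that leaves a line with no replicate. The added contrast of H3.3 with Daxx lines (2) gave 1 with library size alone, 1 with no filter, 4 with the replicate block, and between 1 and 3 with a library left out. Over all genes, 39.9% passed the added contrast with the settings used here. This share was 40.5% with library size alone, 30.3% with no filter and 49.7% with the replicate block. Replicate numbers were not treated as pairs, since the correlation of deviations was over 0.1 in 7 of 10 pairs of lines (0.27 to 0.574) but not in 3 pairs with H3.3 KO (-0.044 to 0.069). The lines of the DAXX rescue (0.566), the WT H3.3 rescue (0.282) and the mutant against WT H3.3 (0.423) were among the former, and with the block no member passed in any of them. For Sumo3, Morc3 and Usp7, replicate 1 lay above replicate 2 in all 5 lines. With the replicate block, Pias1 (adjusted p = 0.0398, edgeR) and Sumo3 (0.0345) passed between the knockout lines at under 2-fold, against 34.9% of all genes. Sumo3 (0.0162) and Sp100 (0.0251) joined the added contrast, against 49.7% of all genes. The DAXX rescue then had 1437 calls at any fold over all genes instead of 186.

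Of 397 recomputed log2 fold changes of members, 36 changed sign. No member was called in these comparisons with the settings used here, so no called value could change sign. Under other scalings or fits, the WT H3.3 rescue gave Rnf4 -0.01 (TMM), -0.03 (library size) and -0.01 (fitted alone) and Usp7 -0.0035 (TMM) and -0.02 (library size). The mutant rescue gave Pias1 0.0021 (no filter), and the knockout lines gave Pml 0.07 (library size) and Rnf4 0.0017 (TMM) and 0.07 (library size). With a library left out, the DAXX rescue ranged from -0.47 to 0.23 (Pml), -0.27 to 0.03 (Sumo3), -0.01 to 0.18 (Morc3) and -0.29 to 0.44 (Usp7). The WT H3.3 rescue ranged from -0.34 to 0.10 (Sumo3), -0.07 to 0.08 (Rnf4) and -0.04 to 0.07 (Usp7), and the mutant rescue from -0.03 to 0.18 (Pml), -0.01 to 0.64 (Sumo3), -0.16 to 0.07 (Rnf4), -0.13 to 0.12 (Pias1) and -0.17 to 0.08 (Usp7). The mutant against WT H3.3 ranged from -0.09 to 0.27 (Sumo2), -0.17 to 0.06 (Rnf4) and -0.19 to 0.06 (Usp7), and the knockout lines from -0.33 to 0.36 (Pml), -0.03 to 1.10 (Sp100), -0.23 to 0.22 (Rnf4) and -0.24 to 0.47 (Usp7). The cause was not tested. At any fold, the DAXX rescue had 186 calls over all genes (1.41%) in the fit of all lines, 1159 (8.78%) with DESeq2 and 1 (0.00802%) fitted alone. The WT H3.3 rescue had 33 (0.250%), 381 (2.89%) and 720 (5.69%) in the same order. The background shares and their order thus depend on the fit. Over all genes, the mutant against WT H3.3 had 68 calls with the settings used here at 2-fold, between 18 (fitted alone) and 323 (DESeq2) under other settings and between 0 (without mutant replicate 1) and 102 (without Daxx-/- replicate 2) with a library left out. The precision is limited by 2 libraries per line and, for Sp100, by counts of 3.07 to 51.0.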
